A study of Mus musculus with 12 samples.

Results

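Potassium channels were examined in spinal cord through the genes whose symbols begin with Kcn and end in a family letter code and a number. Of 38924 gene rows in the deposited tables, 93 had such a symbol, and the 83 whose mean over the 12 mice was at least 0.1 TPM (transcripts scaled to transcript length and library total) are described here. These 83 genes carry 82 distinct symbols, because Kcnb2 is listed under 2 Ensembl IDs. The 10 genes under the minimum were Kcna7, Kcna10, Kcne1, Kcng3, Kcnj1, Kcnj15, Kcnk16, Kcnk18, Kcnmb3 and Kcnv2, and the naming pattern also left out Kcnrg and Kcne1l. The members nearest the minimum were Kcnk15 at 0.108 and Kcne3 at 0.112 TPM, and the nearest genes outside were Kcna7 at 0.0942 and Kcnj15 at 0.0925 TPM.

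Potassium channels let potassium flow out of the cell near rest and so set the resting potential, end the action potential and limit how fast a neuron fires. Most voltage-gated channels are tetramers of pore subunits that open on depolarisation, to which silent modifier and accessory subunits can be added. Inward rectifiers and two-pore leak channels hold the resting potential, and calcium- or sodium-activated channels open as the ions that enter during firing accumulate. In the cord, motor neurons use leak, delayed rectifier and calcium-activated channels to set excitability, and glia use inward rectifiers to clear potassium from around axons and cell bodies.

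The study sequenced polyA RNA of whole spinal cord from 12 mice, 6 labelled ETAQ and 6 labelled WT, all aged 8 weeks and on a B6J;FVB background. ETAQ mice have the genotype label ETAQ+/- and carry 1 copy of a Gars allele that lacks a short stretch of glycyl-tRNA synthetase, and WT mice have the label ETAQ+/+. Each genotype had 3 females and 3 males, and each library is 1 mouse, numbered from 1 to 12 in the titles. The comparison asks which transcripts of the cord change in a mouse that carries this allele, whose human counterparts cause a peripheral neuropathy. The genotype labels cannot be checked from Gars itself, since a count per gene adds up both copies.

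The libraries held 23595944 to 41452700 counts and 20934 to 22006 genes above 0. The 83 genes together made up 2135 to 2569 TPM, which is 0.214% to 0.257% of the total in a mouse. Mice 1 to 6 and mice 7 to 12 formed separate sets in markers of other tissue: 11 of 11 blood and marrow genes and 8 of 9 skeletal muscle genes tested were higher in mice 1 to 6, and the summed level of the blood list was 7877 to 13844 TPM there against 559 to 1146 TPM in mice 7 to 12. The genotypes were balanced over the sets, 3 mice each, but the sexes were not: mice 1 to 6 included 3 WT males, 2 ETAQ males and 1 ETAQ female. The spinal cord label was checked against general neuronal and oligodendrocyte markers, of which none of 10 and none of 8 were at 0. The neuronal markers summed to 5604 to 6004 TPM in ETAQ mice and 6309 to 7091 TPM in WT mice. In the edgeR test described below, Nefh, Nefl, Nefm and Stmn2 were called lower in ETAQ mice, and the other 6 were not. Nefm averaged 889 TPM in ETAQ mice and 1264 TPM in WT mice, and Nefl 766 and 1046 TPM. The sums therefore do not describe all neuronal markers alike.

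The levels of the potassium channel genes spanned more than 3 orders of magnitude per transcript length. Kcnj10, Kcnab2, Kcnc1 and Kcna1 each had at least 100 TPM, with means over the 12 mice of 372, 332, 138 and 126 TPM. They encode the main glial inward rectifier, a cytoplasmic subunit of Kv1 channels, the fast Kv3.1 channel and the axonal Kv1.1 channel. Among the 83 genes 29 were between 10 and 100 TPM, and 14 were under 1 TPM.

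**Figure D1:**
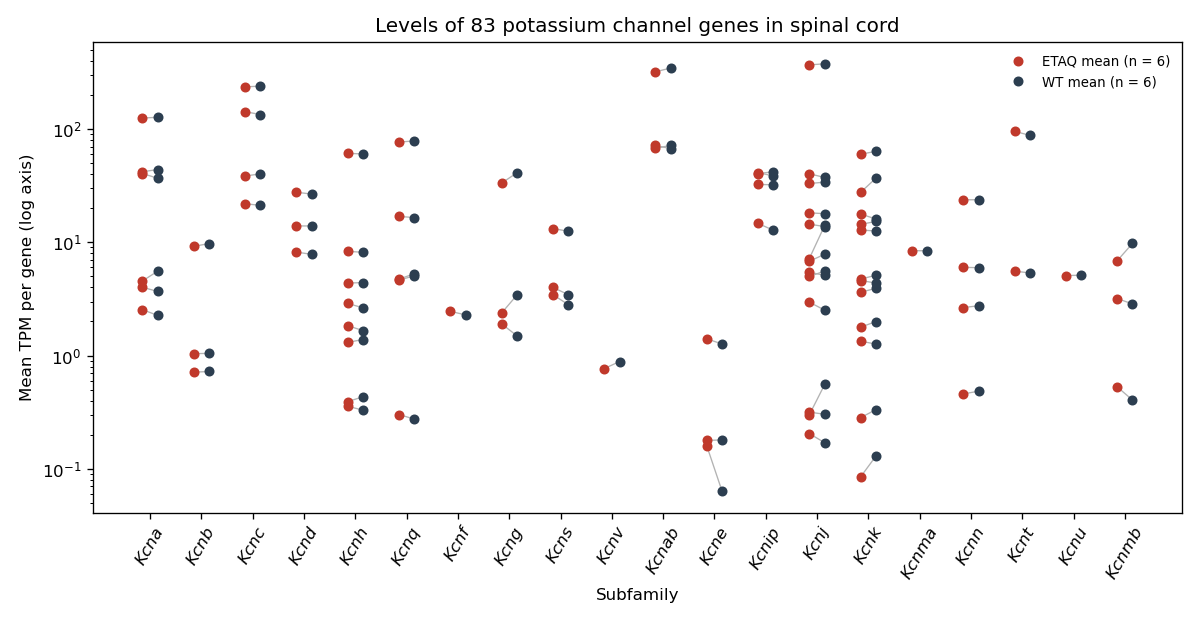
Mean level of each of the 83 potassium channel genes in TPM (log axis) by subfamily, with the mean of the 6 ETAQ mice on the left and that of the 6 WT mice on the right of each pair, joined by a line. Most lines are close to level, and the highest points are Kcnj10 at 368 in ETAQ and 376 TPM in WT and Kcnab2 at 319 and 346 TPM.

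Among the potassium channel genes 6 fell in ETAQ cords and 0 rose. Those that fell were Kcnj14 and Kcnk9, pore subunits of an inward rectifier and a leak channel, Kcng1 and Kcng4, silent modifier subunits, Kcnmb4, an accessory subunit of the large-conductance calcium-activated channel (BK), and Kcnab1, an accessory subunit of Kv1 channels. Of the 79 members that passed the filter on low counts, edgeR's quasi-likelihood test, in a model with a sex term, with Benjamini-Hochberg adjustment over all 17189 genes tested called 6 lower, against 1.34% of all genes tested. It called 0 higher, against 0.582% of all genes, with 2 higher and 15 lower members at an unadjusted p under 0.05, and DESeq2 and limma-voom also called 0 higher. The share of members called lower was 7.59%. The median log2 fold change was -0.03 over the 79 members and 0.0043 over all genes tested, and 46 members (58.2%) had a negative value, against 48.1% of all genes. Means are given below ± SD over the 6 mice of a group, and log2 fold changes of ETAQ over WT ± SE.

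In most potassium channel genes the mice of the 2 genotypes overlapped. In 7 members every ETAQ mouse had a lower normalised CPM (counts scaled to the adjusted library total) than every WT mouse, and in 0 the groups were separate in the other direction, with 2 members higher at an unadjusted p under 0.05 in edgeR. Among all genes tested 1.35% were separate with ETAQ lower and 0.657% with ETAQ higher. The 7 were the 6 called genes and Kcnj12. The 4 members that did not pass the filter were Kcnk7, Kcnk15, Kcne2 and Kcne3, each under 1 TPM. Since whole cord was sequenced, fewer cells of a type and less RNA per cell cannot be told apart for any of these genes.

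**Figure D2:**
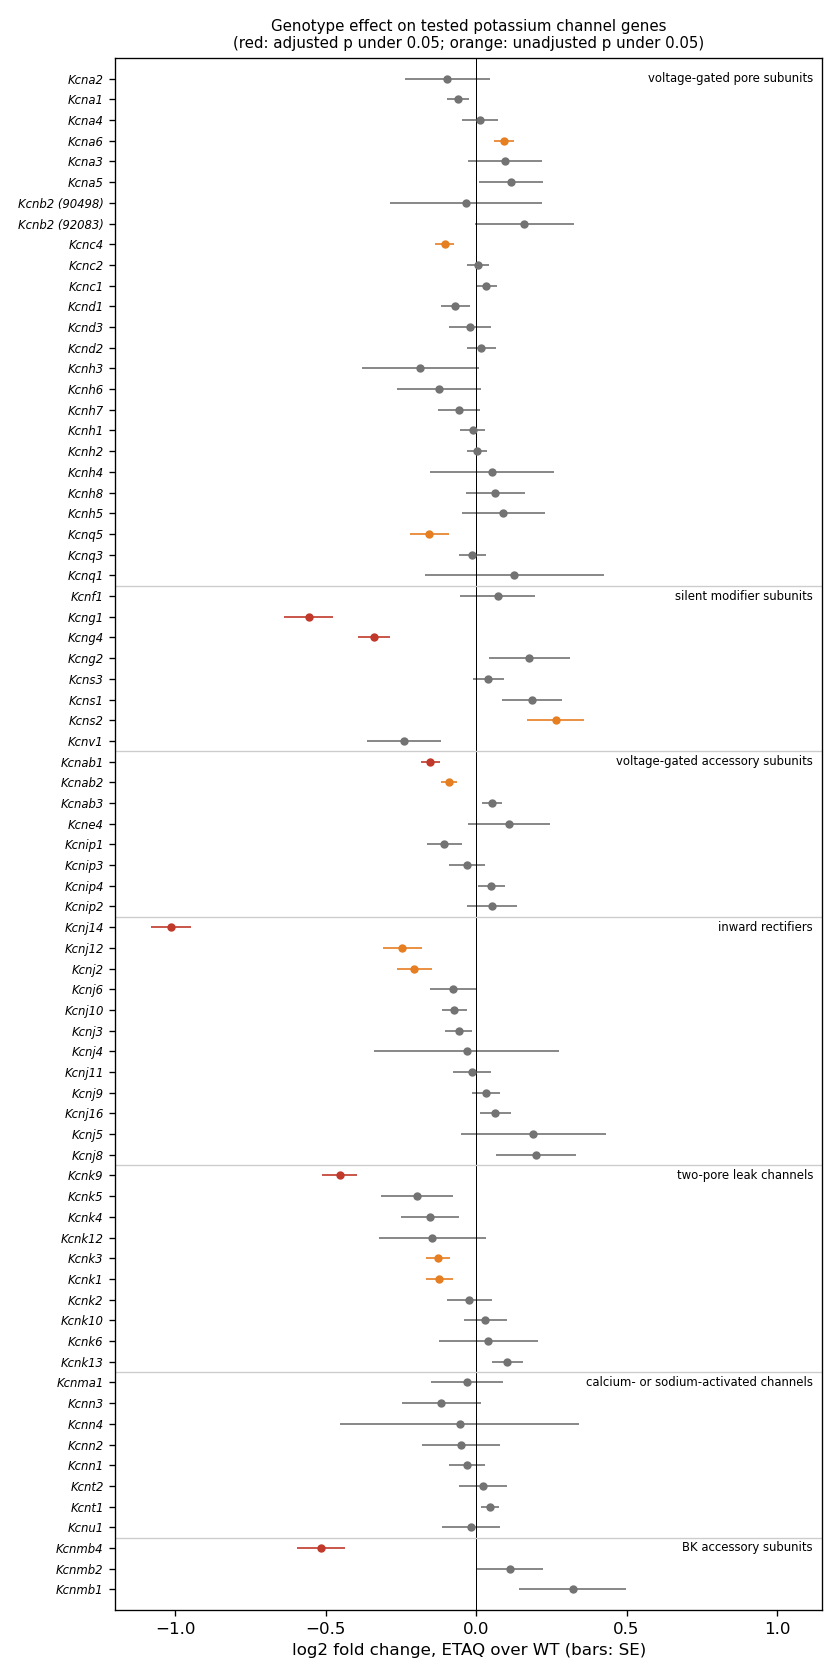
Log2 fold change of ETAQ over WT (points, edgeR, with bars of 1 SE) for 74 of the 79 potassium channel genes tested, grouped by role, with Kcnj13 left out because its SE was 1.06 and the others not shown here. The 6 red points all lie left of 0, from -1.01 for Kcnj14 to -0.15 for Kcnab1, and the remaining points lie on both sides of 0.

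The inward rectifiers (Kcnj) pass potassium more easily into than out of the cell and hold it near rest. Kcnj14 (ENSMUSG00000058743, chromosome 7, 45816460 to 45824782, minus strand in GRCm38) encodes Kir2.4, which in rat was described in motor nuclei of the brainstem. Its lowest, median and highest values were 9.09, 10.2 and 11.2 normalised CPM in the 6 ETAQ mice, against 18.2, 20.7 and 22.8 in the 6 WT mice. The highest ETAQ mouse was far below the lowest WT mouse, so the groups did not overlap. Kcnj14 averaged 10.2 ± 0.917 normalised CPM in ETAQ mice and 20.6 ± 1.69 in WT mice (SD, n = 6 each) and fell by 50.5% in ETAQ mice, which is -1.01 ± 0.07 (SE) on the log2 scale (edgeR adjusted p = 4.45e-07), the largest size and smallest p among the 79 members. Of its 75-base sequences 24.6% also occur in the gene Gm5522, which the tables used here do not list, so reads in that part are uncertain.

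The other 12 inward rectifiers tested did not pass. Kcnj12 and Kcnj2, which encode the closely related Kir2.2 and Kir2.1, came nearest. Kcnj12 ranged over 7.07 to 8.94 normalised CPM in ETAQ mice and 8.98 to 11.5 in WT mice, just without overlap (log2 fold change -0.25 ± 0.06, edgeR adjusted p = 0.0728). Kcnj2 was at 15.3 ± 1.21 normalised CPM in ETAQ mice and 17.6 ± 1.51 in WT mice (log2 fold change -0.21 ± 0.06, edgeR adjusted p = 0.11). Both have the same sign as Kcnj14, and neither passed in the fit of all 12 mice.

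Kcnj10, which encodes Kir4.1 of astrocytes and oligodendrocytes, was the member with the highest level. Its lowest, median and highest levels were 342, 371 and 389.7 TPM in ETAQ mice and 362, 372 and 401 TPM in WT mice, and the ranges overlapped. On the count scale it stood at 1118 ± 74.1 normalised CPM in ETAQ mice and 1176 ± 41.5 in WT mice, a log2 fold change of -0.07 ± 0.04 (edgeR adjusted p = 0.59). Its partner Kcnj16 (Kir5.1) was at 79.3 ± 7.25 in ETAQ mice and 75.8 ± 2.11 in WT mice (0.06 ± 0.05, adjusted p = 0.745). Kcnj8, the vascular Kir6.1 gene, had a log2 fold change of 0.20 ± 0.13 (adjusted p = 0.668), and Kcnj9, a G protein-gated channel gene, had 0.03 ± 0.05 (adjusted p = 0.885). Over all 13 inward rectifiers the summed level was 502 ± 17.5 TPM in ETAQ mice and 515 ± 18.9 TPM in WT mice, most of it from Kcnj10.

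The two-pore leak channels (Kcnk) are open near rest and carry the background potassium current. Kcnk9 (ENSMUSG00000036760, chromosome 15, 72501089 to 72546340, minus strand in GRCm38) encodes the acid-sensitive channel TASK-3, a leak channel of motor neurons. Its lowest, median and highest values were 14.8, 15.7 and 16.6 normalised CPM in ETAQ mice, against 18.2, 22.04 and 23.6 in WT mice. The ETAQ mice lay close together and all below the WT mice. The means were 15.7 ± 0.664 normalised CPM in ETAQ mice and 21.6 ± 2.06 in WT mice (SD, n = 6 each), and Kcnk9 fell by 26.95% (log2 fold change -0.45 ± 0.06 (SE), edgeR adjusted p = 0.000384).

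Kcnk3, which encodes the partner TASK-1, ranged over 28.2 to 31.2 normalised CPM in ETAQ mice and 31.1 to 35.3 in WT mice, with a log2 fold change of -0.13 ± 0.04 (edgeR adjusted p = 0.185). These ranges overlapped narrowly. Kcnk1 (TWIK-1) had the highest level of the 12 leak channel genes, with lowest, median and highest values of 55.1, 59.97 and 63.5 TPM in ETAQ mice and 57.4, 62.7 and 72.7 TPM in WT mice. Its log2 fold change was -0.12 ± 0.04 (edgeR adjusted p = 0.274). Kcnk13 (THIK-1), a leak channel of microglia, was at 29.5 ± 2.13 normalised CPM in ETAQ mice and 27.5 ± 1.21 in WT mice (log2 fold change 0.10 ± 0.05, adjusted p = 0.48), and Kcnk2 (TREK-1) and Kcnk6 (TWIK-2) had log2 fold changes of -0.02 ± 0.07 and 0.04 ± 0.17. Of the 10 leak channel genes tested, 1 fell, 0 rose and 9 did not pass, against 1.34% of all genes lower and 0.582% higher. A negative log2 fold change was found in 7, against 48.1% of all genes. The summed level of the group was 149 ± 4.43 TPM in ETAQ mice and 161 ± 9.77 TPM in WT mice. The ranges, 140 to 152 and 145 to 174 TPM, overlapped, and Kcnk9 alone averaged 27.6 and 36.8 TPM.

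Silent modifier subunits (Kcnf, Kcng, Kcns and Kcnv) form no channel alone and join Kv2 pore subunits, whose gating they shift. Both calls of this group were Kcng genes. Kcng1 (ENSMUSG00000074575, chromosome 2, 168260117 to 168281736, minus strand in GRCm38), which encodes Kv6.1, had lowest, median and highest values of 4.27, 4.6 and 5.36 normalised CPM in ETAQ mice, against 6.23, 7.02 and 7.67 in WT mice. Every ETAQ mouse was below every WT mouse. The means were 4.72 ± 0.423 normalised CPM in ETAQ mice and 6.95 ± 0.622 in WT mice (SD, n = 6 each), and Kcng1 fell by 32.04% (log2 fold change -0.56 ± 0.08 (SE), edgeR adjusted p = 0.00132).

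Kcng4 (ENSMUSG00000045246, chromosome 8, 119623854 to 119635680, minus strand in GRCm38) encodes Kv6.4 and is used in mouse as a marker of large, fast motor neurons. It had the highest level of the silent subunits, with lowest, median and highest values of 30.9, 32.6 and 36.4 TPM in ETAQ mice and 38.5, 39.96 and 46.98 TPM in WT mice. On the count scale these were 62.6, 70.3 and 77.4 normalised CPM in ETAQ mice, against 82.7, 87.8 and 97.5 in WT mice. The ETAQ mice of each set lay below all WT mice. The means were 69.9 ± 6.66 normalised CPM in ETAQ mice and 88.5 ± 5.37 in WT mice (SD, n = 6 each), and Kcng4 fell by 20.97% (log2 fold change -0.34 ± 0.05 (SE), edgeR adjusted p = 0.00258).

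Other silent subunits did not pass, and their values were not all negative. Kcns2 (Kv9.2) had the highest positive value among the genes at an unadjusted p under 0.05, at 8.34 ± 1.05 normalised CPM in ETAQ mice and 7.001 ± 1.3 in WT mice (log2 fold change 0.26 ± 0.10, edgeR adjusted p = 0.264). Kcns3, Kcnf1 and Kcnv1 had log2 fold changes of 0.04 ± 0.05, 0.07 ± 0.13 and -0.24 ± 0.12. The Kcng subfamily summed to 37.5 ± 1.9 TPM in ETAQ mice and 45.9 ± 3.37 TPM in WT mice, with 6-mouse ranges of 35.4 to 39.9 and 42.9 to 52.4 TPM, which did not overlap. Most of this sum came from Kcng4, at 33.3 and 41.0 TPM, so it largely restates that gene. Kcng2, the remaining Kcng gene, had a positive log2 fold change of 0.18 and did not pass. The Kcns subfamily summed to 20.7 ± 1.26 TPM in ETAQ mice and 18.8 ± 2.1 TPM in WT mice, and its ranges overlapped.

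The BK channel opens on calcium entry and voltage together, and its accessory subunits (Kcnmb) set its calcium sensitivity and kinetics. Kcnmb4 (ENSMUSG00000054934, chromosome 10, 116417861 to 116473878, minus strand in GRCm38) encodes the neuronal subunit and had lowest, median and highest levels of 6.26, 6.84 and 7.47 TPM in ETAQ mice and 8.53, 9.24 and 13.1 TPM in WT mice. On the count scale these were 3.85, 4.37 and 4.47 normalised CPM in ETAQ mice, against 5.49, 6.1 and 7.05 in WT mice. The groups did not overlap. The means were 4.3 ± 0.237 normalised CPM in ETAQ mice and 6.14 ± 0.579 in WT mice (SD, n = 6 each), and Kcnmb4 fell by 30.1% (log2 fold change -0.52 ± 0.08 (SE), edgeR adjusted p = 0.0019). In GENCODE M21, 31.5% of its exon bases lie opposite 2 antisense genes that the tables used here do not list, and the strand setting of the counting was not given, so reads of the 2 strands cannot be told apart there.

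The pore subunit of BK itself did not pass. Kcnma1 stood at 20.5 ± 1.81 normalised CPM in ETAQ mice and 20.97 ± 4.27 in WT mice, a log2 fold change of -0.03 ± 0.12 (edgeR adjusted p = 0.966). Kcnmb1, the smooth muscle subunit, was at 1.23 ± 0.297 in ETAQ mice and 0.977 ± 0.138 in WT mice (0.32 ± 0.18, adjusted p = 0.567), with mouse 9 the highest ETAQ mouse. Kcnma1 thus overlapped between the genotypes where its accessory gene Kcnmb4 did not, and the difference between the 2 genes was not tested.

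Accessory subunits of voltage-gated channels include the cytoplasmic beta subunits of Kv1 (Kcnab), the calcium-binding partners of Kv4 (Kcnip) and the single-pass Kcne proteins. Kcnab1 (ENSMUSG00000027827, chromosome 3, 65109384 to 65378223, plus strand in GRCm38) encodes the beta subunit that can give Kv1 channels fast inactivation. Its lowest, median and highest values were 111, 115 and 120.02 normalised CPM in ETAQ mice, against 122, 129 and 133 in WT mice. The groups did not overlap, by a narrow gap. The means were 115 ± 4.23 normalised CPM in ETAQ mice and 128 ± 4.35 in WT mice (SD, n = 6 each), and Kcnab1 fell by 10.04% (log2 fold change -0.15 ± 0.03 (SE), edgeR adjusted p = 0.0216), the smallest change among the 6. It did not pass without ETAQ mouse 6, ETAQ mouse 9, WT mouse 10 or WT mouse 12, each left out alone, where the highest adjusted p was 0.0619.

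Kcnab2 had the highest level of the accessory genes, with lowest, median and highest values of 267, 333 and 345 TPM in ETAQ mice and 275, 351 and 433 TPM in WT mice. On the count scale it was at 462 ± 8.74 normalised CPM in ETAQ mice and 491 ± 14.7 in WT mice (log2 fold change -0.09 ± 0.03, edgeR adjusted p = 0.123), and DESeq2 called it lower at an adjusted p of 0.00253, while the other alternatives left it uncalled, with an adjusted p of up to 0.722. Kcnab3 had 0.05 ± 0.03 (adjusted p = 0.626), the opposite sign. Kcnip1, the highest of the Kv4 partners at 41.1 TPM, had a log2 fold change of -0.11 ± 0.06, and Kcne4, at 1.33 TPM, had 0.11 ± 0.14. Of the 8 accessory genes tested, 1 fell, against 1.34% of all genes, and 7 did not pass.

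**Figure D3:**
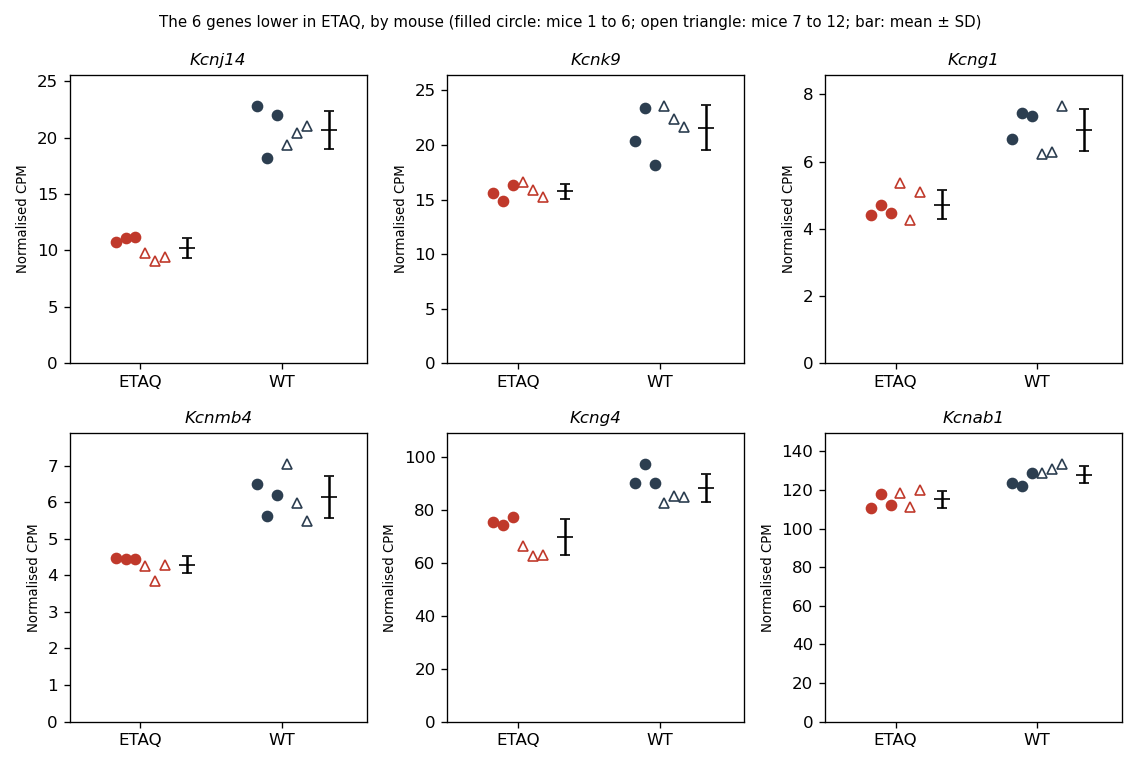
Normalised CPM of the 6 potassium channel genes called lower, 1 point per mouse, ETAQ on the left and WT on the right, with filled circles for mice 1 to 6, open triangles for mice 7 to 12 and bars for the mean ± SD. In each panel all 6 ETAQ points lie below all 6 WT points, for example 9.09 to 11.2 in ETAQ mice and 18.2 to 22.8 in WT mice for Kcnj14.

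Promoter windows of RefSeq on GRCm38.p6 were at hand for 59 of the 83 members. Among the called genes these were Kcng4, Kcnmb4 and Kcnab1, whose 250 bases before the transcription start are shown as examples. Kcnj14, Kcnk9 and Kcng1 are named only. All are written 5′ to 3′ on the strand of the gene, in lower case, and capitals mark a match to TGATGNAAN, the composite site bound by ATF4 with a C/EBP partner. The windows are at chr8:119635681-119635930, minus strand, for Kcng4, at chr10:116473524-116473773, minus strand, for Kcnmb4, and at chr3:65108764-65109013, plus strand, for 1 of 3 starts of Kcnab1.
Kcng4: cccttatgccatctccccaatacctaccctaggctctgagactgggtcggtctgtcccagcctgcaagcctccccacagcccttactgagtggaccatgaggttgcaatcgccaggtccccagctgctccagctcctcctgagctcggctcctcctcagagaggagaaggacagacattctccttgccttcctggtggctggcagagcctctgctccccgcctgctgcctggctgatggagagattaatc
Kcnmb4: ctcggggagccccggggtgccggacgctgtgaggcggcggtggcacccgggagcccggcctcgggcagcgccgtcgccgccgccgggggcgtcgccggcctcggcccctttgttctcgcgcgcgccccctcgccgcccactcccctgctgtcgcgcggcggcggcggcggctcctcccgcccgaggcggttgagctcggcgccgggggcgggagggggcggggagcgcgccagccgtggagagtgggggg
Kcnab1: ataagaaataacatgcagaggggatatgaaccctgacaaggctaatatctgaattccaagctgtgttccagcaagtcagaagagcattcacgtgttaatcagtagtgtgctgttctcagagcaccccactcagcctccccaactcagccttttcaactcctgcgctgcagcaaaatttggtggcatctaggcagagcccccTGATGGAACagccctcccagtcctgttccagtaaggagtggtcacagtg
The Kcnmb4 window is 83.6% G or C with 43 CpG dinucleotides, the Kcng4 window 60.4% with 4, and the printed Kcnab1 window 50% with 2. Of the 3 Kcnab1 windows only the printed window held a TGATGNAAN match. Those not printed were 45.2% G or C with 6 CpG dinucleotides and 35.6% with 1. The median over the 84 windows of the members was 58.8% G or C, against 52.4% over all 32851 windows of the table.

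Both strands of each 250-base window were searched for 4 letter motifs, and a match is a description only. TGATGNAAN occurred in 2 of the 84 member windows, of Kcnab1 and Kcne2, and in 3.44% of all windows. The homeodomain core TAATTA occurred in 0 member windows and 4.84% of all, and the cAMP response element TGACGTCA in 0 and 1.55%. TATAAA, the letters of the TATA box, occurred in 3 member windows, of Kcnj9, Kcnj13 and Kcnj16, and in 12.4% of all. None of the 4 motifs contains another on either strand. Apart from the match in Kcnab1, the 5 windows of the called genes held none of the 4 motifs.

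The voltage-gated pore subunits (Kcna, Kcnb, Kcnc, Kcnd, Kcnh and Kcnq) were the largest group, with 29 genes, all tested. In edgeR 0 of them passed in either direction, while 4 were lower and 1 was higher at an unadjusted p under 0.05, and DESeq2 and limma-voom called 0. Their summed level was 900.4 ± 44.98 TPM in ETAQ mice and 898 ± 70.1 TPM in WT mice. The median log2 fold change of the group was -0.01.

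Kv3 channels (Kcnc) let neurons fire at high rates. Kcnc4 (Kv3.4) was at 62.6 ± 3.55 normalised CPM in ETAQ mice and 67.3 ± 2.65 in WT mice (log2 fold change -0.11 ± 0.03, edgeR adjusted p = 0.169). Kcnc1 and Kcnc2 had log2 fold changes of 0.03 ± 0.03 and 0.01 ± 0.04. The subfamily sum was 438 ± 22.7 TPM in ETAQ mice and 434 ± 30.8 TPM in WT mice.

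Kv1 channels (Kcna) lie beside the nodes of myelinated axons, where Kv1.1 and Kv1.2 assemble. Kcna1 was at 641 ± 27.3 normalised CPM in ETAQ mice and 669 ± 28.7 in WT mice (log2 fold change -0.06 ± 0.04, edgeR adjusted p = 0.607), and Kcna2 was at 79.4 ± 8.16 in ETAQ mice and 84.9 ± 18.3 in WT mice (-0.10 ± 0.14, adjusted p = 0.885). The WT mice of Kcna2 ranged over 62.1 to 116 normalised CPM and enclosed all ETAQ mice, at 70.9 to 94.2. Kcna5 (Kv1.5) had a log2 fold change of 0.12 ± 0.11.

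The Kcnq subfamily includes the M-current genes, which limit repeated firing. Of these, Kcnq5 had a log2 fold change of -0.16 ± 0.07, with an edgeR adjusted p of 0.382. Kcnh2, the erg channel gene, was at 103 ± 2.54 normalised CPM in ETAQ mice and 103 ± 5.81 in WT mice (0.0017 ± 0.03), and Kcnh1, of the ether-a-go-go type, had -0.01 ± 0.04. Kcnd2, a Kv4 subunit of dendritic A-type current, had 0.02 ± 0.05. All of these ranges overlapped between the genotypes.

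Among the calcium- and sodium-activated pore subunits 0 of 8 genes passed in either direction in edgeR, and likewise 0 in DESeq2 and in limma-voom, while the unadjusted p of edgeR was under 0.05 in 0 of them. Kcnt1, the sodium-activated Slack channel gene, had the highest level, with lowest, median and highest values of 87.7, 94.9 and 105 TPM in ETAQ mice and 81.1, 86.8 and 98.00000 TPM in WT mice. Its log2 fold change was 0.05 ± 0.03. Kcnn2 and Kcnn3, the small-conductance SK2 and SK3 genes of the motor neuron after-hyperpolarisation, had -0.05 ± 0.13 and -0.12 ± 0.13. Kcnn2 ranged over 23.5 to 33.05 normalised CPM in ETAQ mice and 23.5 to 35.2 in WT mice, a wide overlap. Kcnn4, of microglia and blood cells, was at 0.491 ± 0.32 in ETAQ mice and 0.529 ± 0.226 in WT mice and had -0.06 ± 0.40, and Kcnu1, known from sperm, had -0.02 ± 0.10.

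Lists of channels by cell type gave the following counts. The lists were drawn up with earlier results of these data known, so the counts are a description and not a test. Of 14 channels of motor neurons, 3 fell (Kcng4, Kcnj14 and Kcnk9), 0 rose and 11 did not pass, against 1.34% of all genes lower and 0.582% higher, with a median log2 fold change of -0.11 against 0.0043 over all genes tested. Of 9 channels of fast-spiking neurons, 1 fell (Kcnab1) and 8 did not pass, against the same shares of all genes, with a median of -0.06. These neuronal lists share 4 genes (Kcna1, Kcna2, Kcnc1 and Kcnc4), none of which passed in edgeR. Of 8 glial channels 0 passed in edgeR, with 1 at an unadjusted p under 0.05 (Kcna6) and 0 in DESeq2 and limma-voom. Of 6 vascular channels 0 passed in edgeR, with 2 at an unadjusted p under 0.05 (Kcnj2 and Kcnk3) and 0 in DESeq2 and limma-voom. Kcnk3 is also in the motor neuron list, so its value is not particular to vessels. The medians of the glial and vascular lists were 0.04 and 0.11.

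Markers of motor neurons moved with the same genotype. Of 17 such genes tested, 8 fell (Ahnak2, Calca, Calcb, Chat, Chodl, Prph, Slc10a4 and Spp1), 0 rose and 9 did not pass, against 1.34% of all genes lower, and their summed level was 266 to 311 TPM in ETAQ mice and 421 to 476 TPM in WT mice, without overlap and with none at 0. The transcription factor genes of the list, Isl1, Isl2, Lhx3 and Mnx1, had log2 fold changes of -0.02, -0.85, -0.05 and -0.14 and did not pass. Of 10 general neuronal genes 4 fell (Nefh, Nefl, Nefm and Stmn2). Of the sensory ganglion list 5 genes were tested and 2 rose (Avil and P2rx3), with sums of 18.3 to 26.6 TPM in ETAQ mice and 3.88 to 5.46 TPM in WT mice. Of 9 astrocyte genes 1 rose, Slc1a3, a glutamate transporter gene, at 151 ± 7.96 normalised CPM in ETAQ mice and 133 ± 5.02 in WT mice (log2 fold change 0.19 ± 0.04, edgeR adjusted p = 0.0141), against 0.582% of all genes higher. The summed astrocyte level was 4361 to 5018 TPM in ETAQ mice and 4131 to 4416 TPM in WT mice. These marker lists were also drawn up with earlier results of these data known. The part of these cell types in the changes of the channel genes was not tested.

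Proteins that partner potassium channels without being channel genes of these names were taken from a list of 42, of which 41 were tested. This list too was drawn up with earlier results of these data known. Of these 2 fell, 0 rose and 39 did not pass, against 1.34% of all genes lower and 0.582% higher. One of those that fell, Adam23, a membrane protein that binds LGI proteins at Kv1 complexes, stood at 381 ± 6.9 normalised CPM in ETAQ mice and 426 ± 17.2 in WT mice (SD, n = 6 each; log2 fold change -0.16 ± 0.03, edgeR adjusted p = 0.00849). The ranges were 376 to 394 and 401 to 447 and did not overlap. The median log2 fold change of the list was -0.0046, against 0.0043 over all genes.

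Within each sex the same direction was seen with fewer calls. In males edgeR called 3 of 79 members lower (Kcng1, Kcnj14 and Kcnk9), against 0.442% of all genes, and 0 higher, against 0.227%, with 3 higher at an unadjusted p under 0.05. In females it called 4 lower (Kcnab1, Kcnj14, Kcnk9 and Kcnmb4), against 0.541%, and 0 higher, against 0.198%, with 1 higher at an unadjusted p under 0.05. Kcnj14 had log2 fold changes of -0.99 in males and -1.04 in females (adjusted p = 0.000112 and 7.64e-05 in edgeR), and Kcnk9 had -0.41 in males and -0.49 in females. Kcnab1 had -0.10 in males and -0.21 in females (adjusted p = 0.543 and 0.0342). The difference between the sexes was called in 0 members and 0% of all genes. These fits hold no term for set. All 3 WT males are in mice 1 to 6 and all 3 WT females in mice 7 to 12, while ETAQ mouse 1 is a female of mice 1 to 6 and ETAQ mouse 11 a male of mice 7 to 12. With set in the fit, the effect within males becomes the same quantity as the effect within mice 1 to 6 with sex in the fit, and that within females the same as within mice 7 to 12, so effects that differ by sex and by set cannot be told apart. Kcnj3 was the 1 member at an unadjusted p under 0.05 for the difference between the sexes in edgeR, with log2 fold changes of 0.04 in males and -0.15 in females. It also differed between the sets (adjusted p = 0.00754), and with set in the edgeR fit the values were -0.01 and -0.10, and the difference was no longer past that threshold.

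Within each set of mice every call among the members was lower in ETAQ. In mice 1 to 6 edgeR called 4 members lower (Kcng1, Kcng4, Kcnj14 and Kcnk9), against 0.524% of all genes, and 0 higher, against 0.279%, with 4 higher at an unadjusted p under 0.05. In mice 7 to 12 it called 5 lower (Kcnab1, Kcng4, Kcnj14, Kcnk9 and Kcnmb4), against 0.686%, and 0 higher, against 0.25%, with 3 higher at an unadjusted p under 0.05. Kcng4 had log2 fold changes of -0.29 in mice 1 to 6 and -0.39 in mice 7 to 12, and Kcng1 had -0.64 and -0.48 (adjusted p = 0.0307 and 0.13). Kcnmb4 had -0.44 and -0.59 (adjusted p = 0.191 and 0.0395). The difference between the sets was called in 0 members and 0% of all genes, with 3 members at an unadjusted p under 0.05 (Kcnip2, Kcnj16 and Kcnt1).

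The sets themselves differed in 10 potassium channel genes. With genotype and sex in the fit, edgeR called 7 members lower in mice 1 to 6, against 2.96% of all genes, and 3 higher, against 4.93%. Those lower were Kcnd2, Kcnd3 and Kcnip4 of the Kv4 complex, Kcnj3, Kcnk12, Kcns2 and Kcnt2, and those higher were Kcng4, Kcnj10 and Kcnk1. Kcnd3 stood at 48.6 ± 1.95 normalised CPM in mice 1 to 6 and 59.2 ± 1.27 in mice 7 to 12 (SD, n = 6 each; log2 fold change -0.30 ± 0.04, edgeR adjusted p = 0.000336). Kcnd2 stood at 73.9 ± 2.6 normalised CPM in mice 1 to 6 and 84.8 ± 1.93 in mice 7 to 12 (SD, n = 6 each; log2 fold change -0.19 ± 0.04, edgeR adjusted p = 0.00721). In both Kv4 genes every mouse of 1 to 6 was below every mouse of 7 to 12. Kcnk12 had the largest size, at 3.64 ± 0.72 normalised CPM in mice 1 to 6 and 6.25 ± 0.67 in mice 7 to 12 (SD, n = 6 each; log2 fold change -0.66 ± 0.15, edgeR adjusted p = 0.0129). Blood and muscle markers moved with the same division, and their part in these values was not tested.

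**Figure D4:**
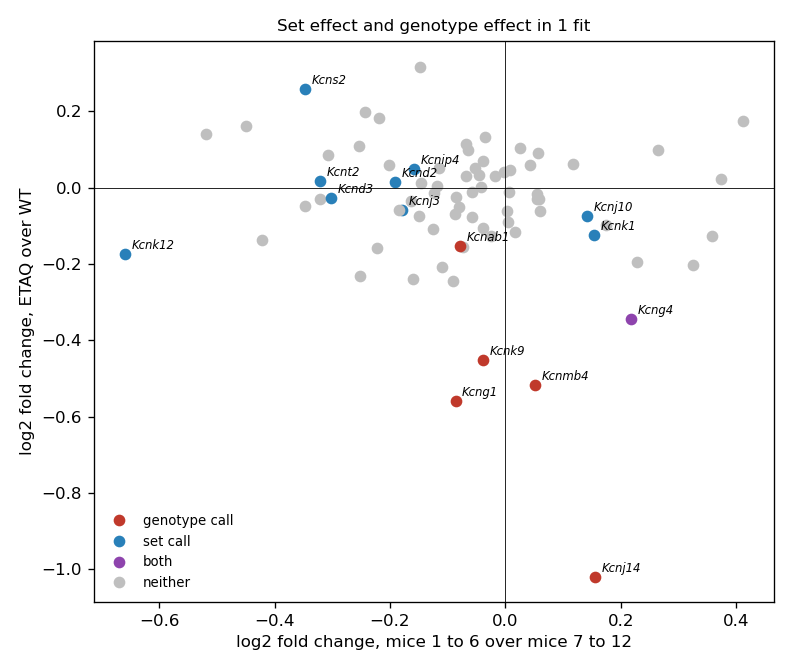
Log2 fold change of mice 1 to 6 over mice 7 to 12 (x axis) and of ETAQ over WT (y axis) in 1 edgeR fit with sex, for 77 of the 79 potassium channel genes tested, with Kcnj13 and Kcnn4 left out for their large SE. Kcng4 is the 1 gene called for both, at 0.22 and -0.34, and the other 5 genotype calls run from -0.09 for Kcng1 to 0.16 for Kcnj14 on the x axis, with no set call.

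Between males and females, with genotype and not set in the fit, edgeR called 0 members in either direction, against 0.0582% of all genes lower and 0.0349% higher in males. At an unadjusted p under 0.05 were 13 members lower and 3 higher in males, together 20.3% of the 79, and 16.8% of all genes were past that threshold. Of these 16 members 7 were among the genes called between the sets. With set also in the fit 0 members were called, against 0.0291% of all genes lower and 0.0233% higher, and 3 were at an unadjusted p under 0.05 (Kcna6, Kcnj2 and Kcnk5), or 3.8% of members, against 3.55% of all genes. Kcnk5 had the smallest p without set, with a log2 fold change of 0.57 ± 0.12 (males over females, adjusted p = 0.147 in edgeR), and 0.34 ± 0.14 with it. No other tool was run on this comparison, and sex and set can be separated only through 2 ETAQ mice.

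Kcna6 and Kcna4 showed how counting bears on single members. Kcna6 (Kv1.6, ENSMUSG00000038077, chromosome 6, 126708329 to 126740674, minus strand in GRCm38) was 1 of the 2 members with a positive value at an unadjusted p under 0.05, at 124 ± 7.05 normalised CPM in ETAQ mice and 116 ± 4.32 in WT mice (log2 fold change 0.09 ± 0.03, edgeR adjusted p = 0.292). Of its exon bases 39.6% lie opposite Gm26673, and without the strand setting reads of the pair cannot be told apart. Gm26673 fell, at 11.7 ± 0.995 normalised CPM in ETAQ mice and 17.04 ± 2.12 in WT mice (log2 fold change -0.54 ± 0.08, edgeR adjusted p = 0.00134), with ranges of 10.1 to 12.8 and 14.9 to 20.6, which did not overlap. The antisense gene and Kcna6 therefore had opposite signs.

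Kcna4 (Kv1.4) differed between scales. Its normalised CPM was 11.4 ± 0.982 in ETAQ mice and 11.4 ± 1.48 in WT mice, a log2 fold change of 0.01 ± 0.06 (edgeR adjusted p = 0.973), whereas the log2 ratio of mean TPM was -0.29. The deposited transcript length of Kcna4, an estimate made per mouse, ran from 3718 to 4792 bases with a median of 4792 in ETAQ mice and from 3158 to 3942 with a median of 3679 in WT mice. A longer estimate lowers TPM at the same count. In 47 of the 83 members this length varied between mice, and in 36 it was the same in all. For Kcnj14, Kcnk9 and Kcng4 it was the same in all mice, so their TPM and count scales differ by library scaling alone.

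**Figure D5:**
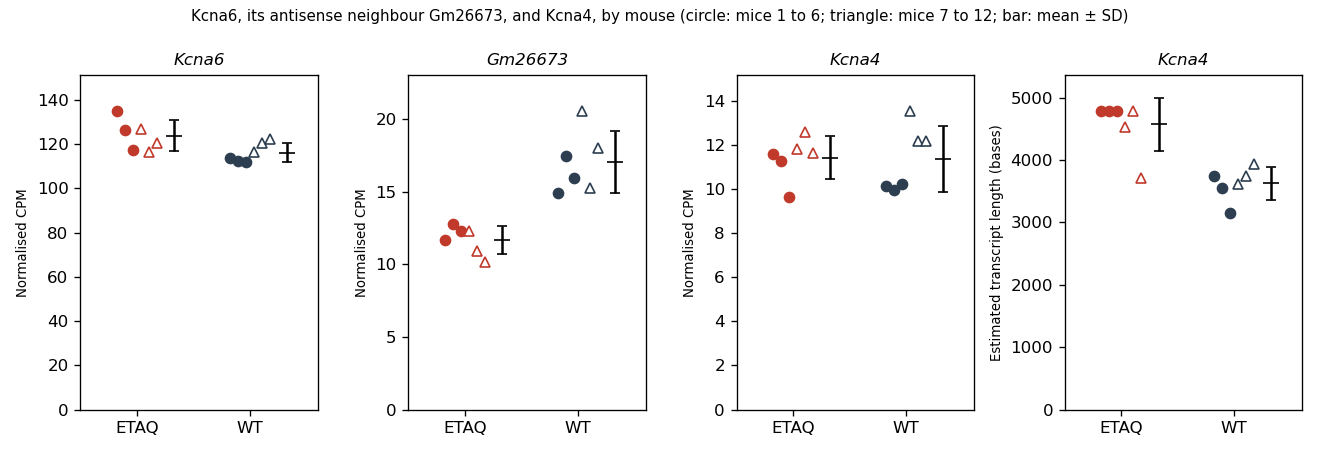
Normalised CPM of Kcna6, of its antisense neighbour Gm26673 and of Kcna4, and the deposited transcript length of Kcna4 in bases, 1 point per mouse, ETAQ on the left and WT on the right, with circles for mice 1 to 6, triangles for mice 7 to 12 and bars for the mean ± SD. Gm26673 is lower in all ETAQ mice, Kcna4 counts overlap, and the length of Kcna4 is at 4792 bases in 4 of the 6 ETAQ mice and at most 3942 in WT mice.

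By position, 5 of the members lie on chromosome 6, which also carries Gars, in the GENCODE M21 annotation. The nearest, Kcnd2, is 33.6 Mb from Gars and had a log2 fold change of 0.02 ± 0.05. Kcna1, Kcna5, Kcna6 and Kcnj8 lie further away, and 0 of these 5 members passed for genotype in edgeR, DESeq2 or limma-voom, with Kcna6 alone at an unadjusted p under 0.05. The 6 called genes are on chromosomes 2, 3, 7, 8, 10 and 15, 1 each.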

How the data were processed

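RNA of whole spinal cord was sequenced in 12 mice, as 75-base read pairs per the labels. Bowtie2 2.2.0 and RSEM 1.2.12 are the tools named, per the submitters' processing notes. The genome build, annotation and strand setting of the counting are not given in the sources used here. Per the file headers, the authors' deposited tables hold an expected count per gene, which RSEM estimates by dividing reads between transcripts and does not normalise, and 15.4% of these values are not whole. They also hold a TPM value per gene, scaled by the authors' software to an estimated transcript length and the library total, and that length in bases, per the file headers. FPKM was not used.

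The expected counts were rounded and analysed in R 4.3.3 with edgeR 4.0.16. Genes were kept with filterByExpr on the genotype-by-sex groups, which left 17189, and libraries were scaled by TMM (factors 0.975 to 1.02). The genotype effect was tested by robust quasi-likelihood, with a sex term in the model. Effects within sex (no set term) and within set (with a sex term) came from fits of all 12 mice. The set effect came from a fit with genotype and sex, and the sex effect from a fit with genotype; set was added to the sex fits as an alternative. Tests are two-sided, p values are Benjamini-Hochberg adjusted over all genes with a threshold of 0.05, and the SE is the absolute log2 fold change over the square root of F. Alternatives used DESeq2 1.42.0 and limma 3.58.1, among others given in the closing section. With 6 mice a group, p values set each difference against the spread between these mice. In edgeR the spread of a gene is estimated with information from the other genes. A count of 0 allows up to 3 counts, or 0.0724 to 0.127 CPM depending on the library, counting error only. The genotype fits were also run on simulated counts with known genotype changes and no set or sex effect. The outcome is not given here, and the fits of the set and sex effects were not simulated.

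Positions and shared 75-base sequences came from GENCODE M21 (GRCm38), which may not be the authors' annotation, and promoters from RefSeq. Genes were named when called, when at an unadjusted p under 0.05, when the highest of a subfamily or when in 4 channel lists by cell type, and others are named as examples or by count; a few genes that meet the rule are not reported here. The members, lists and the division into mice 1 to 6 and 7 to 12 were chosen with earlier results of these data known.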

Additional observations from a re-analysis of the deposited data

Results flagged for a closer look

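Each named gene was checked within each genotype for a mouse far from the other 5 in normalised CPM, by Dixon's test at 95%, over 94 groups. Chance flags about 1 in 20 groups, and 2 were found, both in ETAQ mouse 9, a female. Kcnmb4 was lowest there, at 3.85, against 4.27 in the next mouse and 4.47 in the highest ETAQ mouse, all below the WT mice. Kcnmb1 was highest there, at 1.81, against 1.23 in the next mouse and 0.977 in the lowest.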

How the results depend on the processing

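No paired analysis was possible because each mouse has a number of its own and the genotypes share none. The count of 6 members lower was 6 with RLE scaling, no filter, a stricter filter (at least 1 CPM in 6 libraries), no covariate, sex and set as covariates, or limma-voom, and the same 6 genes were called each time. It was 7 with DESeq2, which added Kcnab2, and 4 with limma on log2(TPM + 0.1) or log2(TPM + 1), where Kcng1 and Kcnab1 did not pass. With mice 1 to 6 alone it was 3 (Kcng1, Kcng4 and Kcnj14), and with mice 7 to 12 alone 4, fits of 3 mice a group. Leaving out 1 mouse at a time gave 5 to 7, and without WT mouse 3 Kcnj2 passed at an adjusted p of 0.026 in edgeR. The count of members higher was 0 throughout these alternatives. Kcnj14 and Kcng4 passed in all 12 fits without 1 mouse and in all 11 other alternatives, with log2 fold changes from -1.10 to -0.88 for Kcnj14 and from -0.40 to -0.29 for Kcng4 over the 11. Kcnab1 passed in 8 of 12 and 7 of 11. Over these alternatives the 17 genes called or at an unadjusted p under 0.05 gave 391 values, of which 13 no longer passed, 2 newly passed and 0 changed sign. The other 30 named genes gave 688 values, of which 0 passed and 54 had the opposite sign to the reported one, in 17 genes such as Kcnj16, Kcnma1 and Kcna2, with adjusted p of 0.716 or more; the cause of the losses was not tested, beyond the smaller groups of the single sets. Depth limits the members under 1 TPM, of which Kcnj13 was at 0 in some mice of both genotypes.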

Other observations

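The spread between mice differed widely among the potassium channel genes. Over the 6 WT mice the coefficient of variation of normalised CPM was 1.21% for Kcnt1, 2.78% for Kcnj16 and 2.98% for Kcnab2, and over the 6 ETAQ mice it was 5.09%, 9.14% and 1.89% for the same genes. These 3 genes had the lowest values in WT and were chosen after their values were seen. Kcnj13, a channel gene of epithelia such as the choroid plexus, had the highest, at 133% in ETAQ mice and 148% in WT mice, and ranged from 0 to 0.622 normalised CPM in ETAQ mice and from 0 to 0.987 in WT mice.

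Among the genes that differed between the sets of mice, Kcnt2, Kcnj3, Kcnd2, Kcnd3 and Kcnk12 were lower in mice 1 to 6, and Kcnj10, the glial inward rectifier gene, was higher there. Kcnt2 stood at 12.2 ± 0.762 normalised CPM in mice 1 to 6 and 15.3 ± 0.375 in mice 7 to 12 (SD, n = 6 each). Kcnj10 stood at 1184 ± 52.9 in mice 1 to 6 and 1111 ± 57.3 in mice 7 to 12, with overlap. Its edgeR adjusted p between the sets was 0.0473, close to the threshold of 0.05.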
